A study of Mus musculus with 19 samples.

Results

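The cytosolic ribosomal protein genes were followed across embryonic lens, tooth germ and whole body of the mouse. They were chosen by symbol: Rpl or Rps with a number and at most a trailing a, l, x or p, plus Rplp0, Rplp1, Rplp2 and Rpsa, with S6 kinases and symbols holding -ps left out. Each gene was read on 1 probe set, the brightest by mean log2 signal over the 19 arrays among those annotated to it alone. The rule found 46 genes among the 18194 genes with such a probe set, 24 of the large and 22 of the small subunit, and 43 passed the filter on low signal. The current mouse annotation holds 85 symbols of this form, 82 of them protein coding. Of the 85, 39 have no probe set of their own, among them the pseudogenes Rpl32p and Rpl6l, and 25 of the 39 can be read only on probe sets shared with near-identical copies. All samples came from wild-type embryos of the ICR strain, with no transgene, and each array held RNA of hand-dissected tissue. Lens was taken at E10.5 (E marks the embryonic day; n = 3 arrays), a day later at E11.5 (n = 3) and again at E12.5 (n = 3), beside 4 arrays of bodies aged between E10.5 and E12.5. Tooth germ of stage E13.5 (n = 3) had 3 arrays of bodies aged between E11.5 and E13.5. The bodies span several days, and the sources used here do not say which day each body array stands for, how many embryos were pooled, or whether replicates are separate litters, so p-values measure the spread between these arrays only. The series set out to find genes enriched in lens or tooth over body.

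A ribosome is built from ribosomal RNA and a large set of proteins, shared out between a large subunit, which joins amino acids, and a small subunit, which reads the mRNA. The proteins are needed in near equal numbers, and their genes are among the most highly transcribed of any growing cell. Their mRNAs start with a C followed by a run of pyrimidines (the 5′ terminal oligopyrimidine or TOP tract), through which mTOR and Larp1 set how strongly they are translated; arrays read the amount of mRNA and not its translation. Reduced dose of a single member can give tissue-restricted defects, as in Diamond-Blackfan anaemia (Rps19, Rps24, Rps10, Rpl35 and others) or the Tail-short mouse (Rpl38). In the lens, cells at the back of the vesicle stop dividing and fill with crystallins as they lengthen.

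Pyrimidine tracts were looked for at the annotated starts. Of 40 members with an entry in the RefSeq promoter table (build GRCm38.p6), 19 (47.5%) had a C within 5 bases of an annotated start followed by at least 4 C or T on the gene's own strand, against 21.16% of 27025 genes. The windows below run from 40 bases before to 20 bases after the annotated start, on the strand of the gene, with that tract in capitals. Rpl12, Rpl14 and Rps6 were called in lens and have an entry with a tract. Rpl35, Rps10, Rps24 and Rps27 also have one and, among called members with a tract, differed most between tooth germ and body. Rps27 was read on low signal there, with 5 of its 6 tooth-series values below the filter level of 5.46. Rps15 and Rplp0 differed in tooth germ and show no such tract at the annotated start. Not shown are Rps25 and Rpl37, also called in lens, and Rps19, also higher in tooth germ, which have no tract there.
Rpl12 (chr2:32961672-32961731, plus strand): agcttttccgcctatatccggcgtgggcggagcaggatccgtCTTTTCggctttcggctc
Rpl14 (chr9:120571477-120571536, plus strand): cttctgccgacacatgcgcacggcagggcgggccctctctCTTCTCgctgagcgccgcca
Rps6 (chr4:86857348-86857407, minus strand): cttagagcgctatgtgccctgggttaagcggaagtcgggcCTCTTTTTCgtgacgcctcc
Rpl35 (chr2:39005112-39005171, minus strand): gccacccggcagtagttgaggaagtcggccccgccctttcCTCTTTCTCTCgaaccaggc
Rps10 (chr17:27635225-27635284, minus strand): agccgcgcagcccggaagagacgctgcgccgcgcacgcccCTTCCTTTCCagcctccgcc
Rps24 (chr14:24490638-24490697, plus strand): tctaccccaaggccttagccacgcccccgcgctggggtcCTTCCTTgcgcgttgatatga
Rps27 (chr3:90213629-90213688, minus strand): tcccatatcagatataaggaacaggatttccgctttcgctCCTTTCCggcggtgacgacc
Rps15 (chr10:80292391-80292450, plus strand): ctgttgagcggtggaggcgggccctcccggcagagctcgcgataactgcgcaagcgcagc
Rplp0 (chr5:115559427-115559486, plus strand): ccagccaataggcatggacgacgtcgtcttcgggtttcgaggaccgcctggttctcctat
The tract of Rpl35 is 11 bases long, that of Rps10 is 10 and that of Rps6 is 9. An annotated start can lie some bases from the start used in these tissues, and a missing match says only that these letters are not there.

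Over the whole window of 250 bases before to 50 bases after the start, CCGGAA, the core of the ETS family motif, was found on either strand in 26 of 40 members (65.0%) against 16.66% of all genes. ATGGCG, the core of the YY1 motif, was found in 14 (35%) against 10.21%. TATAAA, the TATA box, was held by 5 (12.5%) against 15.67%, and CACGTG, the E-box bound by Myc, by 4 (10%) against 8.09%. Bases of these motifs can overlap one another and the pyrimidine tract, and ATGGCG can also be a start codon within the window.

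The 19 arrays fell into 2 sets that carry the lens and the tooth comparisons separately. In the lens series the difference between the 3′ and 5′ control probe sets of Actb, a standard measure of RNA and labelling quality, lay between 0.21 and 0.48 on the log2 scale, and that of Gapdh between -0.10 and 0.05. In the tooth series the Actb difference was 4.22 to 4.47 in bodies and 4.78 to 5.05 in tooth germ, and the Gapdh difference 3.84 to 4.08 in bodies and 2.82 to 3.13 in tooth germ. The 99th percentile of all probe sets was 12.26 to 12.36 in the lens series and 12.03 to 12.08 in the tooth series. Within the lens series the mean bacterial control signal was 11.14 to 12.46 on some arrays and 9.59 to 10.30 on the others. Every group of that series holds both kinds, and a block for this signal is among the alternatives. Whole bodies of the 2 series correlated at r = 0.874 to 0.905 over all probe sets, and arrays within a group at 0.965 to 0.995. Tissue labels were borne out by markers: the summed signal of 10 lens genes was 14.64 to 16.52 in lens and 10.25 to 10.39 in its bodies, and that of 9 dental genes was 12.36 on each tooth array and 10.69 to 10.84 in its bodies. By stage the lens sum was 14.64 to 16.19 at E10.5, 15.64 to 16.10 at E11.5 and 16.45 to 16.52 at E12.5. The E10.5 arrays were thus the most uneven in these markers. Liver, muscle and neuron genes were high in bodies and low in both dissected tissues, red cell genes were lower in lens (14.30 to 15.39) than in its bodies (15.58 to 15.76), and the summed signal of 10 macrophage genes was 10.40 to 11.28 in lens and 10.21 to 10.62 in its bodies, with 6, 5 and 4 of the 10 called higher at the 3 stages and 2 lower at E10.5. The part of these cell types in the member differences was not tested, and in such bulk samples fewer cells of a type and less RNA per cell cannot be told apart.

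Ribosomal protein signal was nearly level between lens and body. The median member stood between 13.42 and 13.50 on all 13 arrays of the lens series, and 31 or 32 of the 46 members exceeded 13 on each. Of the 43 tested, limma called 3 higher and 0 lower in lens at E10.5, where 13.5% and 19.1% of all tested genes were called higher and lower. At E11.5 it called 3 higher and 0 lower (all genes 14.7% and 22.3%), and a day later 5 higher and 0 lower (all genes 16.6% and 26.7%). At an unadjusted p under 0.05 the members numbered 3, 3 and 6 at the 3 stages, against 40.5%, 44.5% and 49.7% of all genes. The median difference of the members was 0.04, 0.04 and 0.02, and that of all tested genes -0.01, -0.03 and -0.05. The counts depended on the setting: with each array centred on its median, 4, 9 and 9 members were higher at the 3 stages, with the mean of every probe set of a gene 7, 9 and 10, and with probe sets shared with copies 0, 0 and 1. The share of all genes called was not counted under these settings.

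**Figure D1:**
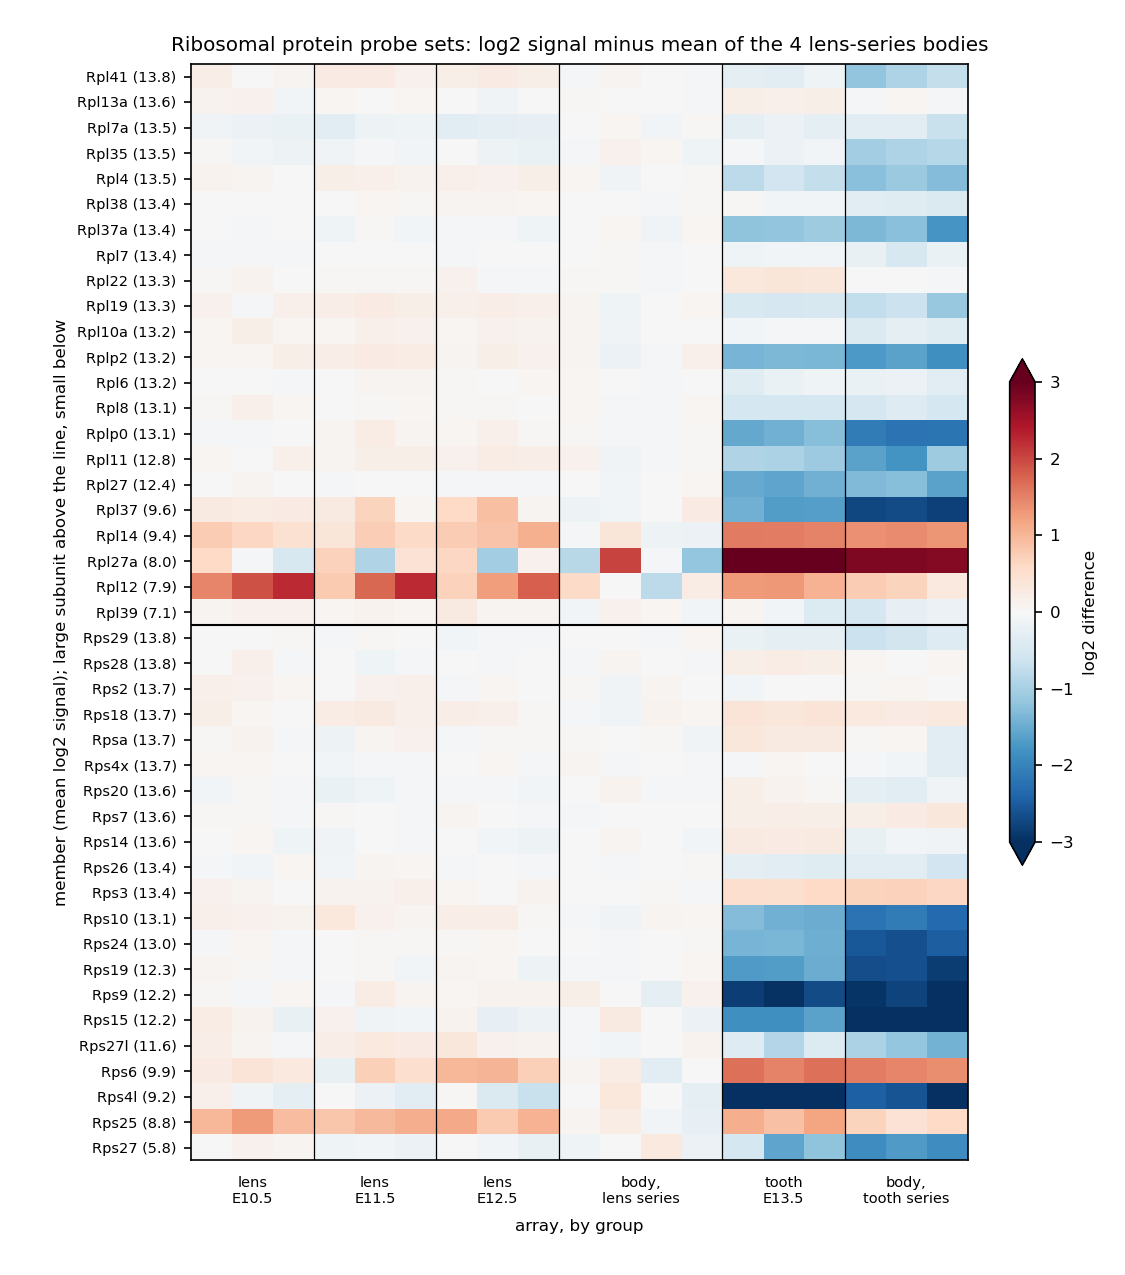
Log2 signal of the 43 tested members (rows, with the mean over 19 arrays in brackets) on each array (columns, by group) minus the mean of the 4 lens-series bodies; the colour scale ends at 3 in each direction. Lens columns are pale except for Rpl12, Rps25, Rpl14, Rps6, Rpl37, Rpl27a and Rps4l, and the tooth series shows blue rows that are darker in its bodies than in tooth germ, such as Rps15, Rps24 and Rps19.

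The 33 members with a mean signal above 12 showed the narrowest spread. None of them was called at any lens stage, and their differences from body ran from -0.27 to 0.22 over the 3 stages. The 95% interval of the difference lay within 0.5 log2 units of 0 for 33 of 33 at the first stage, 33 at the second and 32 at the third, the exception being Rpl7a, with an interval from -0.51 to -0.04 at E12.5. The interval was that narrow for 27.9%, 26.0% and 22.1% of all tested genes. Their median SD over the 13 arrays of the lens series was 0.07, against 0.17 for the 184 other genes with a mean above 12 and 0.32 for all tested genes. The 184 share only the cut of 12 and were not matched to the members for level above it. Of those 184 other bright genes, 12 were called higher (6.52%) and 50 lower (27.2%) in lens at E12.5. On the lens-series arrays the bright members sit above the 99th percentile, and how far the arrays still resolve a change at that end of the scale was not tested. In the tooth series some of them, such as Rps15, read below it.

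Individual bright members show this on every array. Rpl4, which lines the exit tunnel of the large subunit, read 13.84, 13.82 and 13.76 at E10.5, 13.92, 13.90 and 13.85 at E11.5, 13.91, 13.88 and 13.93 at E12.5, and 13.80, 13.65, 13.74 and 13.78 in bodies. The lens values lie at or just above the bodies, with overlap at E10.5. Rps4x, the X-linked S4 protein, read 13.65 to 13.80 on the 9 lens arrays (median 13.72) and 13.81, 13.70, 13.74 and 13.69 in bodies, so its groups overlap. Rps24 read 13.59 to 13.71 over the 9 lens arrays (median 13.68) and 13.63, 13.62, 13.66 and 13.69 in bodies. Rpl7a was the bright member with the largest fall, 13.42, 13.47 and 13.49 at E12.5 against 13.71, 13.80, 13.64 and 13.77 in bodies; the arrays do not overlap, but its difference of -0.27 ± 0.11 (SE) did not pass the test (limma adjusted p = 0.0558).

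The members called in lens all had dimmer probe sets. Rpl12, at the base of the stalk of the large subunit, read 8.34, 8.78 and 9.10 at E10.5, 7.65, 8.61 and 9.12 at E11.5, 7.56, 8.11 and 8.66 at E12.5, and 7.44, 6.86, 6.09 and 7.10 in bodies. Every lens array lies above every body array, although the values within a group spread over more than 1 log2 unit at the 2 later stages and in bodies. The difference was 1.87 ± 0.33 (SE), 1.59 ± 0.33 and 1.24 ± 0.33 at the 3 stages (limma adjusted p = 0.000155, 0.000743 and 0.00451).

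Rps25, a small subunit protein used by viral internal ribosome entry sites, read 9.11, 9.38 and 9.03 at E10.5, 8.94, 9.09 and 9.19 at E11.5, 9.25, 8.89 and 9.16 at E12.5, and 8.20, 8.34, 8.04 and 7.88 in bodies. All 9 lens arrays exceed the 4 bodies, by 1.06 ± 0.14, 0.96 ± 0.14 and 0.99 ± 0.14 (limma adjusted p = 7.34e-06, 2.29e-05 and 1.22e-05). Rpl14 read 9.32, 9.20 and 9.02 at E10.5, 8.93, 9.30 and 9.15 at E11.5, 9.32, 9.43 and 9.65 at E12.5, and 8.55, 8.92, 8.42 and 8.40 in bodies. Its lowest lens array is level with its highest body array, and the differences were 0.61 ± 0.14, 0.55 ± 0.14 and 0.90 ± 0.14 (limma adjusted p = 0.00206, 0.00407 and 3.22e-05).

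Rps6, the substrate of the S6 kinases, read 9.38, 9.53 and 9.43 at E10.5, 8.92, 9.84 and 9.65 at E11.5, 10.13, 10.17 and 9.86 at E12.5, and 9.22, 9.36, 8.81 and 9.15 in bodies. Only the E12.5 difference passed the test, 0.91 ± 0.18 (limma adjusted p = 0.000306), while those of the earlier stages were 0.31 ± 0.18 and 0.33 ± 0.18 (adjusted p = 0.203 and 0.157). Rpl37 read 10.74, 11.05 and 10.23 at E12.5 and 9.99, 10.06, 10.15 and 10.38 in bodies. These arrays overlap, and the difference was 0.52 ± 0.17 (limma adjusted p = 0.0177).

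The same 5 genes did not pass the test on brighter probe sets that also match copies, a reading chosen after seeing the data. On such a set Rpl12 read 13.21 to 13.33 over the 9 lens arrays (median 13.27) and 13.21, 13.41, 13.14 and 13.08 in bodies, a difference of 0.03 ± 0.12 at E12.5 (limma adjusted p = 0.884). The differences at E12.5 were 0.11 ± 0.11 for Rps25, -0.09 ± 0.12 for Rpl14, 0.05 ± 0.11 for Rps6 and 0.14 ± 0.12 for Rpl37 (limma adjusted p = 0.437, 0.618, 0.744 and 0.403). With shared probe sets allowed, 71 genes could be read and 69 tested, and limma called 0, 0 and 1 higher and 0 lower at the 3 stages, the 1 being Rpl30 at E12.5 (0.28 ± 0.10, adjusted p = 0.03). Some dim probe sets of other members were also higher in lens. Of 17 further probe sets of the members' own genes with a mean of at most 12, 7 were called higher and 0 lower at each stage, and of 30 with a mean above 12, 0 were called. Among the 7 at E12.5 were sets of Rps24 (1.31 ± 0.20), Rps10 (1.02 ± 0.13), Rpl22 (0.91 ± 0.16), Rpl41 (0.87 ± 0.15 and 0.79 ± 0.19) and Rps18 (0.82 ± 0.19). Dim sets shared with copies behaved alike: of 25, 7, 9 and 8 were higher and 1, 0 and 0 lower at the 3 stages. Of 72 shared sets with a mean above 12, 0, 0 and 1 were higher and 0 lower. These counts come from a fit of 27618 probe sets, and the share of all probe sets called in it was not counted. Which transcript parts these dim sets read is not given in the sources used here.

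**Figure D2:**
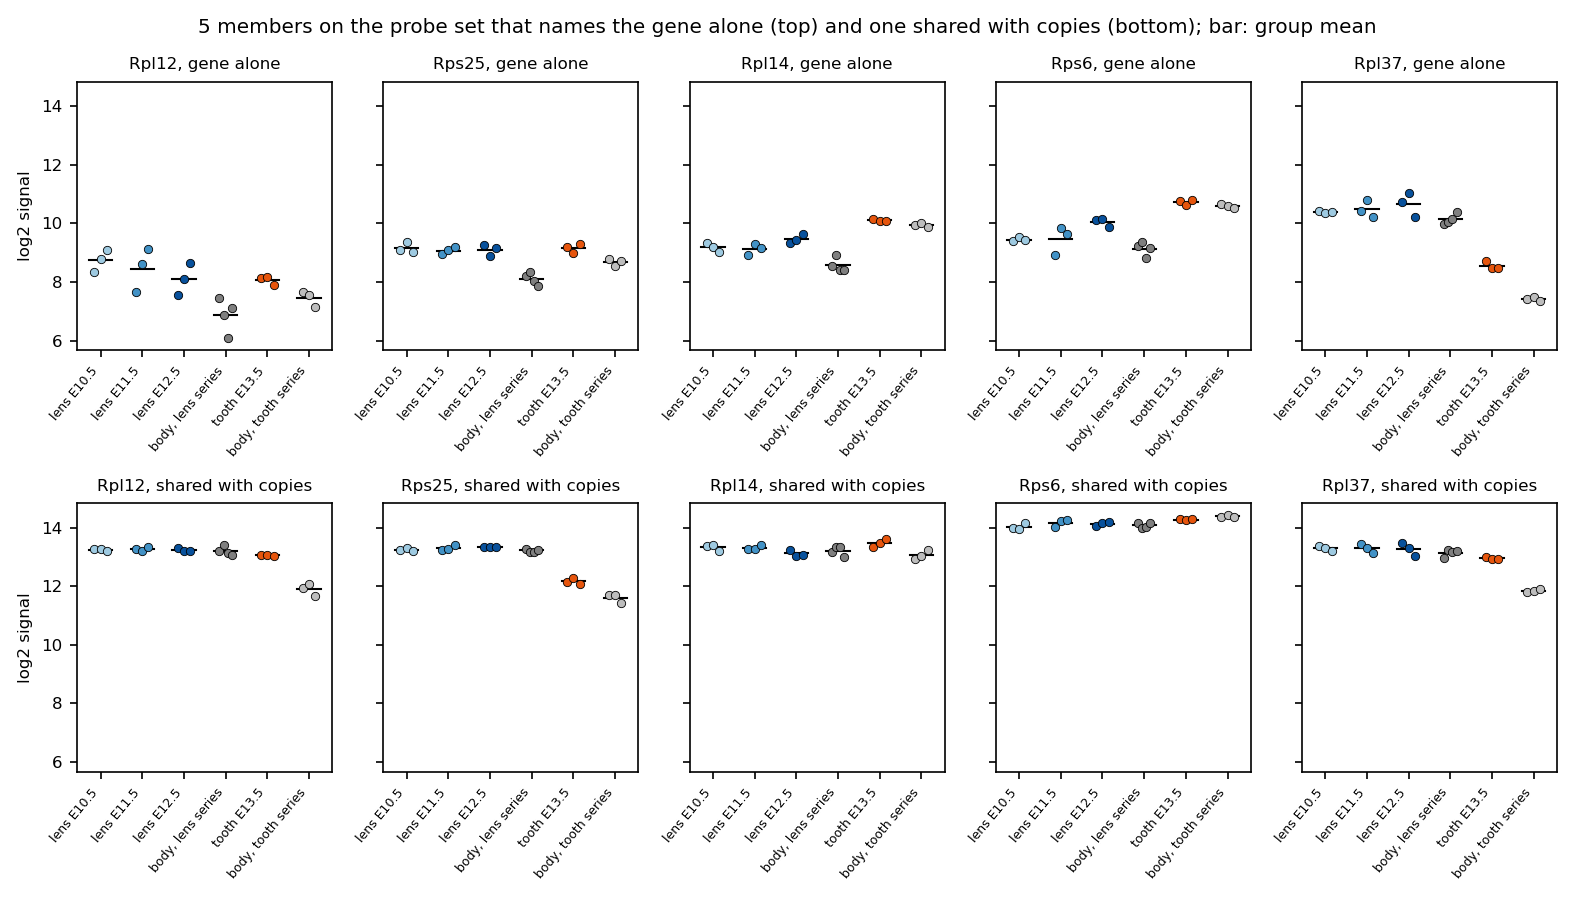
Log2 signal of Rpl12, Rps25, Rpl14, Rps6 and Rpl37 on each array by group, on the probe set that names the gene alone (top) and on a brighter probe set shared with copies (bottom); points are arrays and bars are group means. The top panels show each lens mean above that of its bodies, while the bottom panels show lens and its bodies level, near 13 to 14, and the tooth-series bodies with the lowest mean except for Rps6.

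From E10.5 to E12.5 the members hardly moved within the lens on their chosen probe sets. From E10.5 to E11.5 limma called 0 higher and 0 lower (1.52% and 2.74% of all tested genes), with 0 members at an unadjusted p under 0.05 against 16.6% of all genes. From E11.5 to E12.5 it again called 0 and 0 (3.02% and 3.45% of all genes), with 2 members at an unadjusted p under 0.05 against 17.7%. Over the whole interval Rps6 alone was called, 0.60 ± 0.19 higher at E12.5 than at E10.5 (limma adjusted p = 0.0277), where 8.91% of all genes rose and 13.2% fell. That call was lost when any 1 of 5 of the 6 arrays was left out, the E10.5 arrays and the first and second E12.5 arrays. For all 33 bright members the 95% interval lay within 0.5 of 0 in each of the 3 stage comparisons. Some dim further probe sets did change from E10.5 to E12.5. Of 17 own sets with a mean of at most 12, 1 was called higher and 2 lower (-0.88 to 1.16 over the 17). Of 25 shared sets at that level, 3 were higher and 1 lower. Among sets with a mean above 12, 0 were called of 30 own and 72 shared. The share of all probe sets called was not counted.

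Members with special roles or a paralog gave the following readings. Rplp0 and Rplp2, of the stalk that recruits elongation factors, had lens medians near those of the bodies: Rplp0 read 13.59 to 13.87 over the 9 lens arrays (median 13.70) and 13.67, 13.61, 13.62 and 13.67 in bodies. All Rplp0 values at E11.5 (13.72 to 13.87) and E12.5 (13.69 to 13.80) lie just above those of the bodies, but the gene was not called at any stage. Rpl11, which with Rpl5 binds Mdm2 when ribosome assembly fails, read 13.30, 13.40 and 13.37 at E12.5 and 13.30, 13.07, 13.10 and 13.21 in bodies, with overlap of the lowest lens and the highest body array. Rps4l, the paralog of Rps4x, read 10.26, 9.78 and 9.56 at E12.5 and 10.20, 10.53, 10.24 and 9.92 in bodies, and its difference of -0.36 ± 0.20 was not called (limma adjusted p = 0.155). Rps27l, the paralog of Rps27 and a known p53 target, read 11.89 to 12.12 at E12.5 and 11.70 to 11.88 in bodies. Rpl3l, the muscle form of Rpl3, and Rpl39l, the testis form of Rpl39, did not pass the filter, with means of 3.77 and 4.58, and neither did Rps16, whose own probe set had a mean of 3.48. On a probe set shared with copies, Rps16 read 14.05 to 14.27 over the 13 arrays of the lens series (median 14.17). Among own probe sets the highest means were those of Rpl41 (13.81), Rps29 (13.80) and Rps28 (13.75), although brightness of different probe sets does not order the transcripts.

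**Figure D3:**
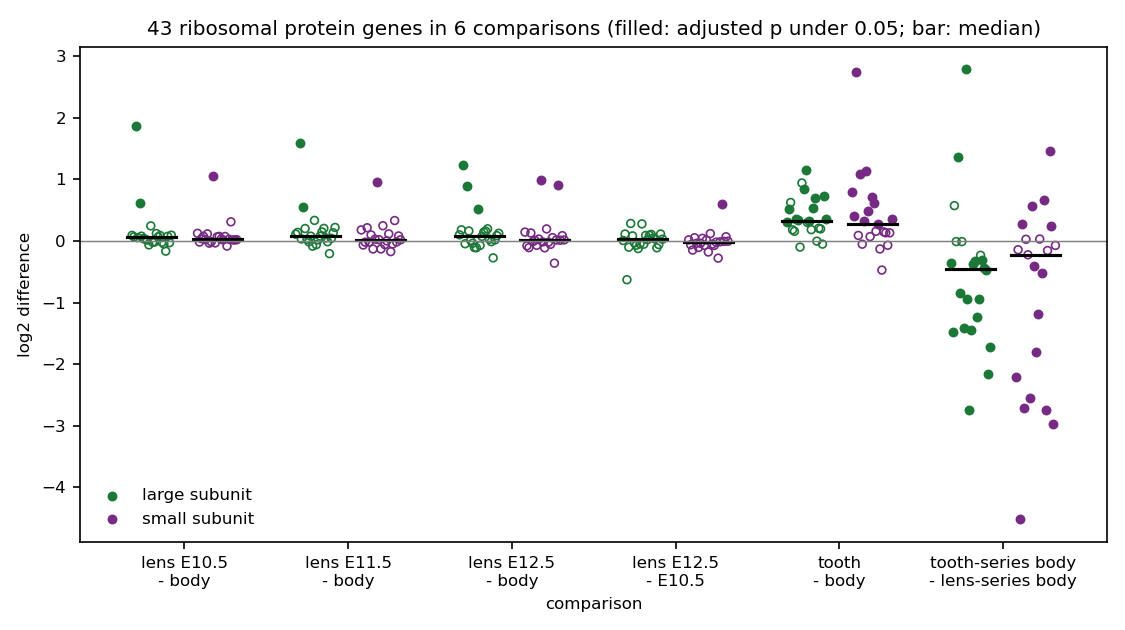
Log2 difference of each of the 43 tested members in 6 comparisons, large subunit in green and small subunit in purple; filled points passed the test and bars are medians. Lens comparisons cluster at 0 with 1 to 5 filled points, tooth germ minus body has its median at 0.32, and the comparison of the bodies spreads from -4.52 to 2.79.

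In tooth germ the ribosomal proteins were broadly higher than in its bodies. Of 43 members, 22 were called higher (51.2%) and 0 lower by limma, where 16.6% of all tested genes were called higher and 25.3% lower. An unadjusted p under 0.05, in either direction, was found for 24 members and for 49.8% of all tested genes. The median difference was 0.32 for the members and -0.04 for all genes. All 3 tooth arrays lay above all 3 bodies for 31 members and below for 1, Rps3, against 24.5% and 31.7% of all genes. The count of 22 fell to between 16 and 19 when 1 array was left out. Among bright genes that are no members, 10.3% were called higher and 28.3% lower.

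Rps15, at the head of the small subunit, differed most. It read 11.39, 11.39 and 11.63 in tooth germ and 8.78, 8.81 and 8.58 in its bodies, far apart, while all 13 arrays of the lens series read 12.99 to 13.50 (median 13.18). The difference of tooth germ from body was 2.75 ± 0.15 (limma adjusted p = 7.69e-11). Rps24 read 12.26, 12.27 and 12.20 in tooth germ and 11.12, 11.01 and 11.18 in bodies, a difference of 1.14 ± 0.10 (limma adjusted p = 7.21e-08). Rps19, which is needed to mature the small subunit, read 11.30, 11.34 and 11.53 against 10.34, 10.37 and 10.17 in bodies, a difference of 1.10 ± 0.12 (limma adjusted p = 4.46e-07). For each of the 3 genes both groups of the tooth series lay below every array of the lens series.

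The largest difference in the large subunit was that of Rpl37, which read 8.70, 8.48 and 8.49 in tooth germ and 7.41, 7.47 and 7.35 in bodies, a difference of 1.15 ± 0.18 (limma adjusted p = 5.39e-05). Rpl35, near the exit of the tunnel, read 13.67, 13.54 and 13.61 against 12.66, 12.77 and 12.85, a difference of 0.85 ± 0.12 (limma adjusted p = 1.18e-05). Rpl35 differs from the small subunit examples in that tooth germ was level with the lens series (13.51 to 13.83) and only the bodies were low. Rplp0 read 12.10, 12.20 and 12.35 against 11.55, 11.43 and 11.46, and Rps10 read 12.26, 12.13 and 12.08 against 11.36, 11.49 and 11.23, differences of 0.74 ± 0.11 and 0.80 ± 0.12.

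The other called members were higher by 0.27 (Rps29) to 0.71 (Rps27). They include Rpl41 (0.70 ± 0.13), Rps27l (0.62 ± 0.15), Rpl4 (0.53 ± 0.11), Rpl11 (0.51 ± 0.15, with overlapping arrays), Rps14 (0.40 ± 0.11), Rpsa, also known as the laminin receptor (0.36 ± 0.12), Rplp2 (0.36 ± 0.12) and Rpl38 (0.32 ± 0.10). Of 13 alternatives, 7 lost the call of Rps29, 6 that of Rps20, 5 each those of Rpl10a and Rpl19, and 4 that of Rpsa. The Rpl11 call was lost in 3, and those of Rplp2, Rpl38 and Rps25 in 2 each. The Rps27 call rests on low signal, since 5 of its 6 values in the tooth series lie below the filter level of 5.46. Among the 21 members not called, Rps4x differed by 0.15 ± 0.11, Rps28 by 0.16 ± 0.11, Rps6 by 0.13 ± 0.19 and Rpl27a by 0.94 ± 0.60, and Rps4l by -0.47 ± 0.21 (limma adjusted p = 0.294, 0.248, 0.598, 0.22 and 0.081). Of members with a pyrimidine tract at the start, 8 of 19 were called higher, and of those without, 11 of 18.

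**Figure D4:**
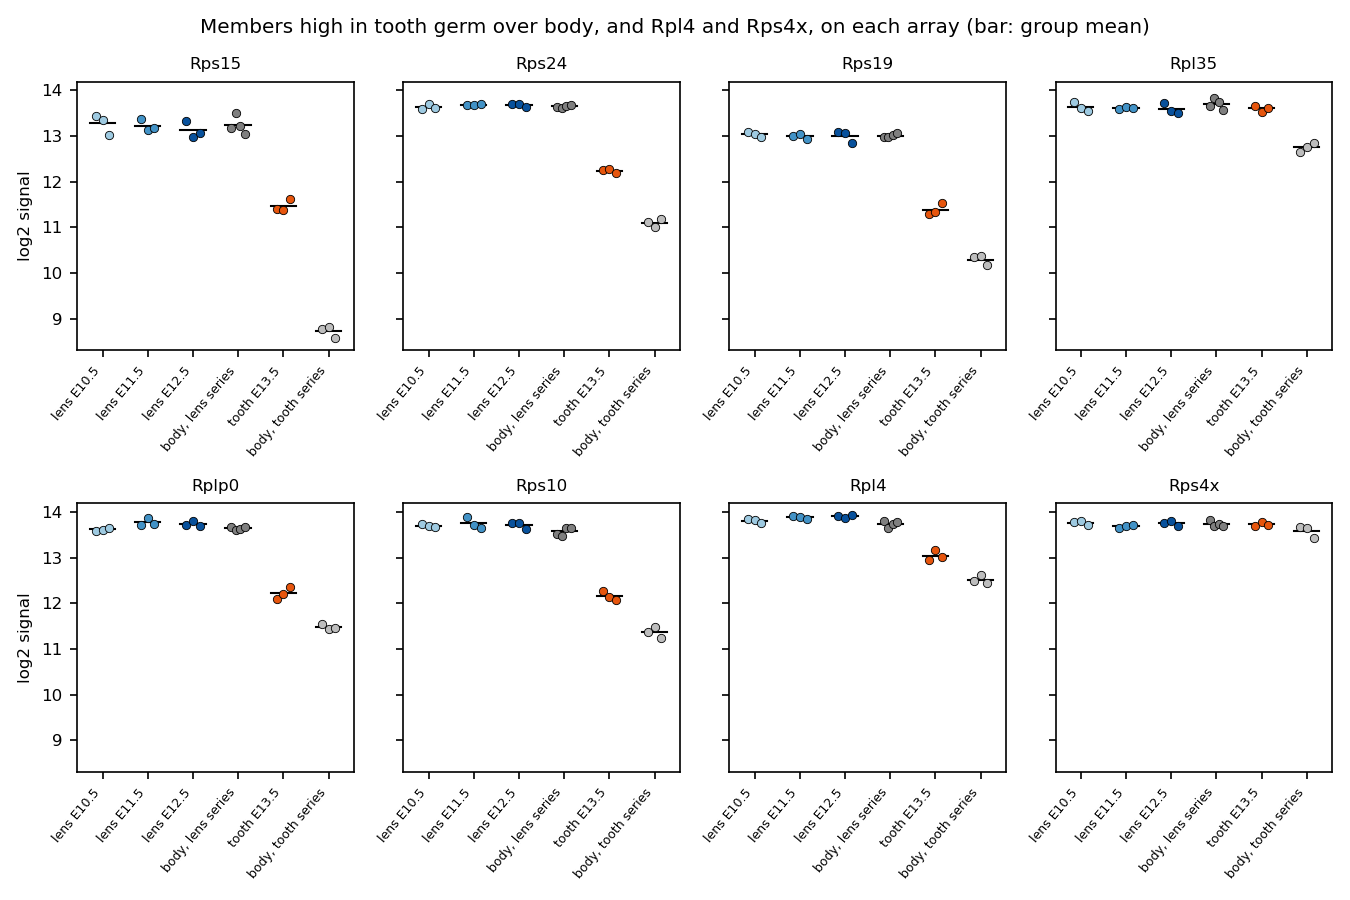
Log2 signal of 6 members called higher in tooth germ than in its bodies (Rps15, Rps24, Rps19, Rpl35, Rplp0, Rps10), of Rpl4 and of Rps4x, on each array by group; points are arrays and bars are group means. The lens series is level, and tooth germ stands above the tooth-series bodies in all panels, by 2.75 for Rps15 and by 0.15, not called, for Rps4x.

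Readings on probe sets shared with copies, added after seeing the data, gave 40 higher and 3 lower of 69 genes in tooth germ. The share of all genes called in that fit was not counted. Among genes with no own probe set, Rplp1, the partner of Rplp2, was 0.50 ± 0.13 higher and Rpl29 0.85 ± 0.14 higher (limma adjusted p = 0.00415 and 7.63e-05). The 3 lower genes were Rps2 (-0.50 ± 0.12), Rpl10 (-0.31 ± 0.10) and Rpl5 (-0.28 ± 0.11), with limma adjusted p = 0.00227, 0.0216 and 0.0384. On its own probe set Rps2 differed by -0.05 ± 0.11, so the 2 readings of this gene disagree.

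The quality measures moved with the tooth comparison. The Actb 3′ to 5′ difference was higher in tooth germ than in bodies and the Gapdh difference lower, and the part of either in the member differences was not tested. Cell type markers also differed: the summed signal of 9 mesenchyme genes was 13.93 to 14.18 in tooth germ and 13.39 to 13.70 in bodies, that of 8 red cell genes 13.84 to 14.08 and 14.42 to 14.98, and that of 10 macrophage genes 9.38 to 9.60 and 10.58 to 10.86. Their part was not tested.

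**Figure D5:**
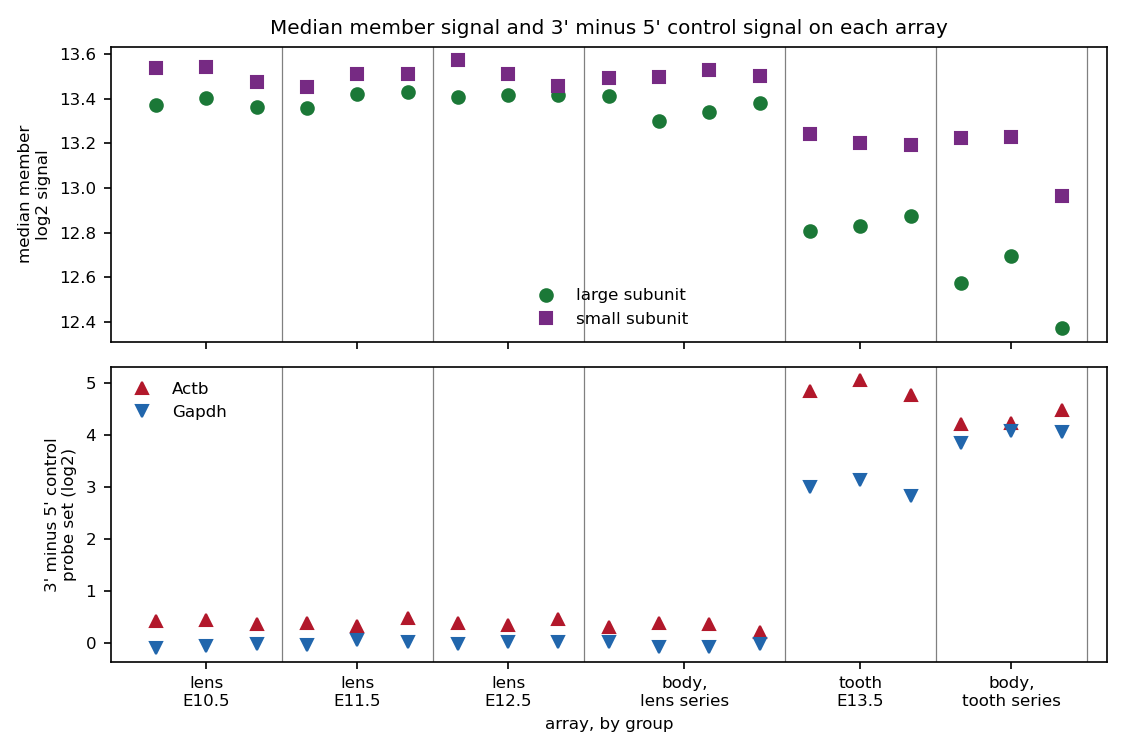
Median log2 signal of large and small subunit members on each array (top) and 3′ minus 5′ log2 difference of the Actb and Gapdh control probe sets (bottom), by group. In the lens series both medians stay above 13.3 and the control differences below 0.5; in the tooth series the control differences exceed 2.8 and the large subunit median is 12.37 to 12.87.

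The lens and tooth differences were also compared with each other. Subtracting the tooth difference from the lens difference at E12.5, limma called 2 members higher (4.65%) and 11 lower (25.6%), where 19.2% and 20.4% of all tested genes were called, so the members were called no more often than genes at large with both directions added up. Lower in this sense were Rps15 (-2.86 ± 0.21), Rps24 (-1.11 ± 0.14), Rps19 (-1.10 ± 0.16), Rpl35 (-0.95 ± 0.16) and Rps27 (-0.82 ± 0.26), and also Rps10, Rplp0, Rpl41, Rps14, Rpl7a and Rps20, from -0.65 to -0.40. The Rps27 value rests on tooth-series signal that lies mostly below the filter level. The Rps20 call was lost in 14 of 20 alternatives and those of Rpl41 and Rpl7a in 5 of 20 each, and Rps20 turned to 0.16 with the mean of every probe set. Higher were Rps6 (0.78 ± 0.26) and Rpl14 (0.74 ± 0.21). On shared probe sets Rps6 stood at 0.16 ± 0.16 and was not called (limma adjusted p = 0.44), and Rpl14 was lower instead (-0.49). The 2 differences come from separate array sets with separate bodies.

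The bodies of the 2 series differed widely in these genes. In the tooth-series bodies 26 members were called lower and 7 higher than in the lens-series bodies, where limma called 31.8% of all tested genes higher and 31.8% lower, and the members' median was -0.40. Rps15 was lowest, 8.78, 8.81 and 8.58 against 13.18, 13.50, 13.22 and 13.05, a difference of -4.52 ± 0.14 (limma adjusted p = 2.89e-14). Rps9 followed with -2.96 ± 0.13, Rps4l with -2.74 ± 0.20, Rpl37 with -2.74 ± 0.17 and Rps19 with -2.72 ± 0.11. Higher were Rpl27a (2.79 ± 0.56), Rps6 (1.46 ± 0.18), Rpl14 (1.37 ± 0.14), Rps3 (0.66 ± 0.10), Rps25 (0.57 ± 0.14), Rps18 (0.28 ± 0.10) and Rps7 (0.25 ± 0.10). The calls of Rps7 and Rps18 were lost in 7 and 6 of 14 alternatives. On shared probe sets Rpl27a, Rpl14 and Rps25 turned to -0.32, -0.14 and -1.62. Rpl27a was also uneven within the lens series, with 6.17, 9.03, 6.96 and 5.84 in its bodies. Series, age range of the bodies and the 3′ to 5′ control difference cannot be told apart here, and whether both series were normalized together is not given in the sources used here.

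Large and small subunit members were counted apart. In tooth germ 11 of 22 large and 11 of 21 small subunit members were called higher (16.6% of all tested genes), with medians of 0.33 and 0.27. In lens at E12.5 the counts were 3 of 22 and 2 of 21 (16.6% of all tested genes), with medians of 0.08 and 0.01. In the comparison of the bodies 16 of 22 large and 10 of 21 small subunit members were lower and 2 and 5 higher (31.8% of all tested genes in either direction), with medians of -0.46 and -0.22. On each array the median large subunit member stood below the median small subunit member, by 0.04 to 0.19 in the lens series, 0.32 to 0.44 in tooth germ and 0.53 to 0.65 in the tooth-series bodies; each median is over different probe sets, so only its change between arrays can be read. No test of large against small members was made.

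Ribosomal proteins with other symbols gave these values. Rpl22l1, the paralog of Rpl22, differed by 0.13 ± 0.12 in lens at E12.5 and by 0.32 ± 0.13 in tooth germ (limma adjusted p = 0.442 and 0.0573). Rps3a1 differed by -0.12 ± 0.10 and -0.13 ± 0.10 (adjusted p = 0.332 and 0.305). Fau, which encodes a small subunit protein fused to a ubiquitin-like part, was level in lens (-0.14 ± 0.12, adjusted p = 0.377) and 1.25 ± 0.13 higher in tooth germ (adjusted p = 3.25e-07). Rpl7l1, a nucleolar relative of Rpl7, was 0.54 ± 0.13 lower in lens at E12.5 than in body and fell by 0.52 ± 0.14 from E10.5 (limma adjusted p = 0.00172 and 0.00914).

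Other genes of the pathway were counted from lists, and each count stands against the share of all tested genes. That share was 13.5% higher and 19.1% lower in lens at E10.5, 14.7% and 22.3% a day later, 16.6% and 26.7% at E12.5, 8.91% and 13.2% from E10.5 to E12.5, and 16.6% and 25.3% in tooth germ. Of 61 assembly factors, 11 were higher and 0 lower in lens at E10.5, 8 and 0 a day later, and 4 and 6 at E12.5, while 0 rose and 9 fell from E10.5 to E12.5, with a median of -0.25 for that interval. The 9 include the assembly ATPase Mdn1 (-0.82 ± 0.20), the box C/D protein Nop56 (-0.81 ± 0.17) and Utp20 (-0.70 ± 0.16). In tooth germ 6 were higher, such as nucleolin (Ncl, 0.82 ± 0.12), and 20 lower, such as Nop58 (-1.31 ± 0.26). Of 15 genes of the RNA polymerase I machinery, which transcribes ribosomal RNA, 4 were higher and 0 lower in lens at E10.5, led by Taf1d (2.07 ± 0.17), and 0 rose and 3 fell to E12.5, with Taf1d at -1.15 ± 0.18 and Polr1a at -0.46 ± 0.16. In tooth germ 2 were higher and 3 lower, Polr1a at 0.67 ± 0.16 and Rrn3 at -1.0 ± 0.20.

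Regulators of ribosomal protein synthesis were called in shares near those of all genes. Of 26, 6 were higher and 8 lower in lens at E12.5 (all genes 16.6% and 26.7%), among them Mycn (1.57 ± 0.16), Mtor (0.83 ± 0.16), Myc (-0.50 ± 0.15) and Mycl (-0.73 ± 0.20). In tooth germ 4 were higher and 8 lower (all genes 16.6% and 25.3%), with Eif4ebp1, the mTOR-controlled inhibitor of cap binding, at 1.33 ± 0.21, Larp1 at -0.81 ± 0.13 and Mycn at -1.58 ± 0.17. Of 31 translation factors, 4 were higher and 1 lower in lens at E12.5, with elongation factor Eef2 at 0.37 ± 0.13, and 5 higher and 12 lower in tooth germ, with release factor Etf1 at -1.53 ± 0.12. Of 14 other TOP mRNAs 2 were higher and 0 lower in lens at E12.5, and 1 (Fau) higher and 5 lower in tooth germ, with Pabpc1 at -0.69 ± 0.15. Eef1a1 and Tpt1 were not called in either (0.01 ± 0.10 and 0.09 ± 0.10 in lens, -0.17 ± 0.10 and 0.03 ± 0.11 in tooth germ).

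The 76 mitochondrial ribosomal proteins, which serve a separate ribosome, gave 6 higher and 10 lower in lens at E12.5, where 16.6% and 26.7% of all genes were called, and 13 and 19 in tooth germ, near the 16.6% and 25.3% of all genes. Of 13 p53 targets, which respond when ribosome assembly fails, 3 were higher and 2 lower in lens at E12.5, with Cdkn1a at -0.62 ± 0.23, and Cdkn1a was 1.04 ± 0.24 higher at E12.5 than at E10.5 (limma adjusted p = 0.0324 and 0.00368). All 20 cell division genes fell from E10.5 to E12.5, with a median of -1.33, where 13.2% of all tested genes fell, while 0 members fell and 1 rose over the same interval.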

How the data were processed

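Values came from 19 Affymetrix mouse arrays. The authors' deposited intensity values, 1 per probe set and array, were made with RMA, per the submitters' processing notes, which also list affy 0.7 with no role; linear values ran from 5.4 to 25043.5, and log2 was taken here. Probe sets were named from the platform annotation and RefSeq symbols (GRCm38.p6). Genes entered the fit when 3 or more arrays read above 44.1 (5.46 in log2), the median of every value in the table, which left 13321 genes. Tests used limma 3.58.1 (R 4.3.3): 1 mean per group over 19 arrays, two-sided, Benjamini-Hochberg over all tested genes, called at an adjusted p under 0.05; the fit was tested on simulated data. Differences are log2 with SE. The number of arrays limits the precision, and no 2 arrays shared more than 2.04% of values. Genes named are the 5 largest called rises and falls per comparison, paralogs, stalk proteins, disease-linked members, the 3 brightest and 3 dimmest, and up to 4 called genes per other list. The members and lists were chosen with earlier results of these data known. Same-numbered arrays deviated together in every pair only for E12.5 against E11.5 lens (r = 0.40 to 0.64). Protein sequences were not used here. Alternatives were the filter, an offset of 16, centring, mean of probe sets, only the arrays compared, replicate and control-signal blocks, leaving out arrays, and, chosen after seeing the data, probe sets shared with copies, members with a mean above 12 and every probe set fitted on its own.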

Additional observations from a re-analysis of the deposited data

Results flagged for a closer look

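Of 43 members tested for a value apart in the 4 lens-series bodies, 1 stood out: Rpl41 read 14.01 in the second body array, and 13.89 to 13.91 in the other 3, a gap of 0.83 of the range. Chance flags about 1 in 20 such groups.

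For 13 members the lens difference at E12.5 differed from the tooth difference by a test of that difference itself (limma, Benjamini-Hochberg over all genes). That is 2 higher (4.65%) and 11 lower (25.6%) of 43, against 19.2% and 20.4% of all tested genes, so the count is no result about the members. The lens difference was below the tooth difference for Rps15 (-2.86), Rps24 (-1.11), Rps19 (-1.10), Rpl35 (-0.95), Rps27 (-0.82), Rps10 (-0.65), Rplp0 (-0.65), Rpl41 (-0.50), Rps14 (-0.48), Rpl7a (-0.47) and Rps20 (-0.40), whose call was lost in 14 of 20 alternatives. It was above the tooth difference for Rpl14 (0.74) and Rps6 (0.78), which on shared probe sets stood at -0.49 and 0.16, the second not called. Most tooth-series values of Rps27 lie below the filter level. The 3′ to 5′ control difference of the arrays separates the same 2 sets, and its part was not tested.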

How the results depend on the processing

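Counts of called members changed as follows, as higher or lower in the direction named. For settings that refit the data, the share of all genes called was not counted. With each array centred on its median, which moved the all-gene median by up to 0.15, 9 members were higher at E11.5, 9 at E12.5 and 1 from E11.5 to E12.5, and the tooth count was 27. With the mean of every probe set, lens gave 7, 9 and 10 higher at the 3 stages, 1 lower at E12.5, and 0 higher and 1 lower from E10.5 to E12.5. An offset of 16 gave 1 lower at E12.5. A block for the bacterial control signal gave 1 lower at E12.5, 1 higher from E11.5 to E12.5, 1 lower from E10.5 to E12.5 and 1 lower in tooth germ. With a replicate block tooth germ had 21 higher, the bodies 6 higher and 25 lower, and the difference of differences 2 higher and 9 lower; it moved no count by over 1.5 times, and the 2 stage comparisons with 0 calls kept 0. With shared probe sets, lens had 0, 0 and 1 higher and E10.5 to E12.5 had 0, tooth germ 40 higher and 3 lower, the bodies 43 lower, and the difference of differences 1 higher and 24 lower. Among members with a mean above 12, 0 were higher at each lens stage, 0 from E10.5 to E12.5 and 0 in the difference of differences, and 3 were higher between the bodies. The cause of these changes was not tested, beyond the probe sets that each setting reads.

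Leaving out 1 array gave these lowest and highest counts: 0 and 1 higher from E10.5 to E12.5 (0 without any E10.5 array or the first or second E12.5 array), 0 and 1 higher from E11.5 to E12.5 (1 without the second E11.5 array), 0 and 1 lower at E12.5 (1 without the first E12.5 array), 1 and 3 higher in the difference of differences (1 without the second tooth array), and 0 and 1 lower in tooth germ (1 without the third body).

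Signs turned for 8 values. With the mean of every probe set, Rps18 was -0.052 and Rps7 -0.41 between the bodies, and Rps20 0.16 in the difference of differences. With shared probe sets Rpl14 was -0.085 in lens at E12.5, -0.14 between the bodies and -0.49 in the difference of differences, Rpl27a -0.32 and Rps25 -1.62 between the bodies. Among the other values of called members, 1221 kept side and sign and 106 no longer passed the test. Of the 1221, 80 belong to the setting of members with a mean above 12. That setting reuses the main fit, so these values could not change.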
